A study of Bos taurus with 8 samples.

Results

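Peroxiredoxins, glutathione peroxidases, glutaredoxin, thioredoxin and superoxide dismutase were followed in blood neutrophils of dairy cows around calving. The group comprised PRDX1, PRDX2, PRDX3, PRDX5, PRDX6, GPX1, GPX4, GLRX, SOD2 and TXN, 10 of the 12639 genes named on the array, taken for their place in the enzymatic defence against peroxides and superoxide. Every array probe whose accession mapped to 1 of them was kept, which gave 22 of the 43653 non-control probes of the array. The cells were neutrophils isolated from jugular vein blood of periparturient female Holstein Friesian cows, with no treatment named. A total of 4 arrays carried samples taken 14 days before the expected calving date, and 4 carried samples taken 7 days after the actual calving date. The study used 3 cows according to its description, and the labels do not say which array came from which. At least 2 arrays at each time therefore came from 1 animal, if no others were used. Taking such arrays as independent makes p-values too small, and they measure a spread that may be partly technical. The same cows may also have supplied both times, a pairing by cow that the fits leave out and that can move p-values either way. The age of the cows is not given in the sources used here.

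Neutrophils kill microbes with a burst of superoxide that is turned into hydrogen peroxide and stronger oxidants, and the same cells need enzymes that remove these oxidants from their own cytosol and mitochondria. Superoxide dismutases convert superoxide to hydrogen peroxide. Peroxiredoxins reduce peroxides with a reactive cysteine that is recharged mostly by thioredoxin, while glutathione peroxidases use glutathione and a selenocysteine. Glutaredoxin removes glutathione from protein thiols.

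Signal was low over the whole series. Between 387 and 4486 probes of an array, or 0.887% to 10.3%, were well above background, a call that the scanner software makes for each spot. The 2 dimmest arrays were before-calving replicate 4 (761 probes) and after-calving replicate 4 (387 probes), and the other 6 held over 2000 each. The processed intensity of before-calving replicate 3 carried a surface correction by the scanner software that no other array had. Each time had a slide and a scan of its own, so time and slide cannot be told apart in any comparison. Of the 11 neutrophil markers with a probe, 9 were well above background on at least 1 of the 6 brighter arrays. ITGAM and S100A8 were not.

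Of the 22 antioxidant probes, 8 were well above background on at least 1 array and 14 on none. The 8 detected probes belonged to 5 genes: GPX1, PRDX5, GLRX, SOD2 and TXN. These probes were 36.4% of the group, against 16.7% of all probes and 19.0% of the probes with a named gene. PRDX1, PRDX2, PRDX3, PRDX6 and GPX4 had no detected probe at either time. Of the 22 probes, 8 were called on before-calving replicate 3, 7 on replicate 1, 4 on replicate 2 and 1 on replicate 4. After calving 6, 5 and 5 were called on replicates 1, 2 and 3 and none on replicate 4. No member spot was saturated or dropped as an outlier, and each probe had a single spot.

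**Figure D1:**
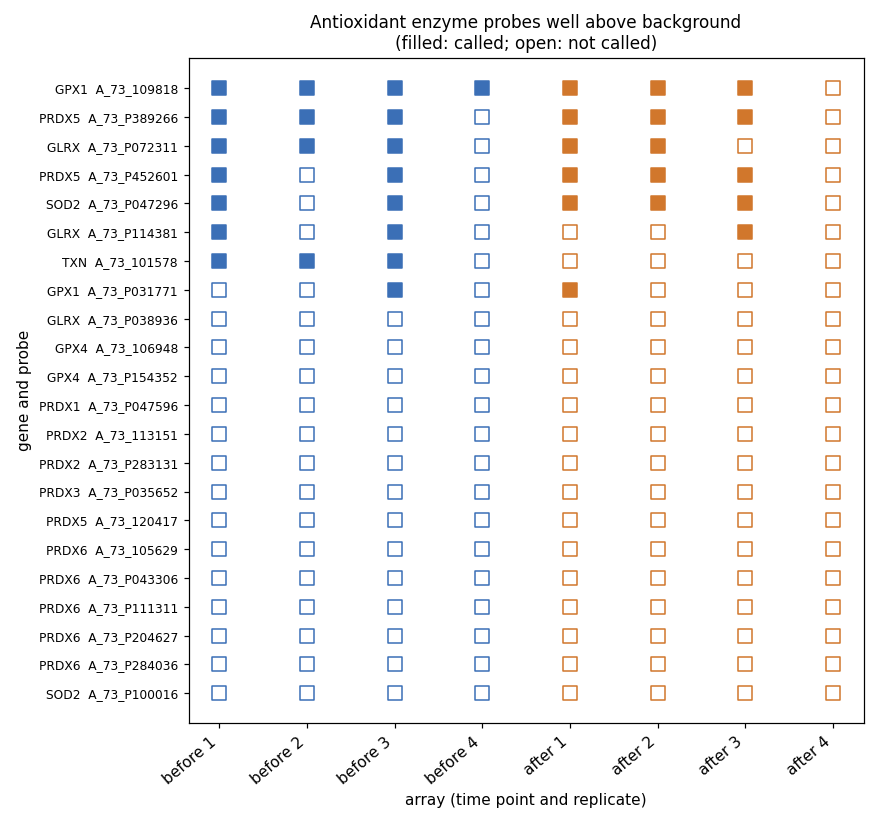
Grid of the 22 antioxidant probes (vertical axis, gene and probe) against the 8 arrays (horizontal axis, time point and replicate), with a filled square where the probe was well above background and an open square where it was not. The 8 detected probes stand at the top, and after-calving replicate 4 has no filled square.

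The peroxiredoxins of the cytosol and mitochondria were, apart from PRDX5, below detection. PRDX1, a cytosolic peroxiredoxin, lay between -7.60 and 4.25 on its probe over the 8 arrays, in background-subtracted intensity (scanner units, where 0 is the local background). PRDX2, a cytosolic enzyme that is abundant in red cells, lay between -7.25 and 3.26 on 2 probes. PRDX3, the mitochondrial enzyme that works with the mitochondrial thioredoxin system, lay between -5.90 and 4.94. PRDX6, which reduces phospholipid hydroperoxides and also has phospholipase activity, lay between -11.6 and 9.67 over 5 probes. GPX4, the selenoenzyme that reduces lipid hydroperoxides in membranes, lay between -10.6 and 19.9 on 2 probes. These ranges straddle 0 at both times, so a difference between the times was not detectable at this signal. They do not show that the transcripts are absent.

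The processed intensity gave a different picture of the same undetected probes on 1 array. On before-calving replicate 3 all 14 undetected probes had a processed intensity above that of each of the other 7 arrays, from 8.53 to 668, while their background-subtracted intensity there lay between -8.55 and 12.7. On the other 7 arrays their processed intensity lay between 3.68 and 19.9. The highest value, 668 for PRDX3, stood beside a range of 4.62 to 4.94 on the other before-calving arrays. The SOD2 probe A_73_P100016 stood at 461 and the PRDX5 probe A_73_120417 at 170 on that array, neither of them well above background. Values of these probes on before-calving replicate 3 are therefore not read as levels.

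**Figure D2:**
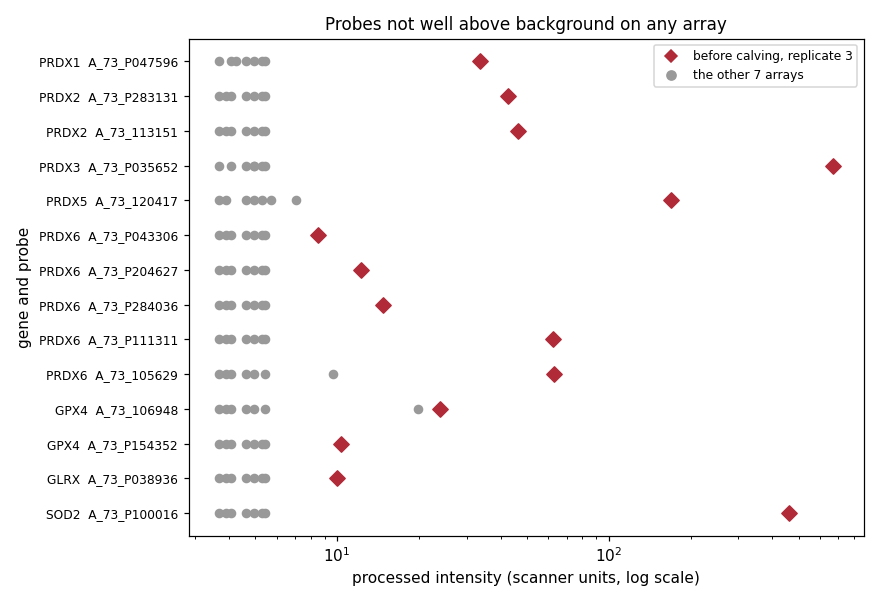
Processed intensity (horizontal axis, scanner units, log scale) of the 14 probes that were not well above background on any array (vertical axis). Red diamonds mark before-calving replicate 3, which lies above the 7 other arrays (grey circles) for every probe and reaches 668 for PRDX3.

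PRDX5 was the peroxiredoxin with measured signal. It codes for a peroxiredoxin found in mitochondria, peroxisomes and cytosol. Its probe A_73_P389266 had a background-subtracted intensity of 126, 83.6 and 169 on before-calving replicates 1, 2 and 3 and of 219, 284 and 310 on after-calving replicates 1, 2 and 3. All 6 of these values were well above background, and the times did not overlap. On the fourth replicates it was at 1.56 before and -0.518 after calving, not well above background on either. The second probe, A_73_P452601, was at 54.4, 10.2, 57.3 and 3.31 on before-calving replicates 1 to 4 and at 64.5, 114, 58.2 and -1.35 on the after-calving replicates. Here after-calving replicate 3 lay only just above before-calving replicate 3, and before-calving replicate 2 was not well above background. The remaining probe, A_73_120417, was not detected on any array.

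GPX1, the cytosolic selenium-dependent glutathione peroxidase, was detected on more arrays than any other member. Probe A_73_109818 was at 1470, 2847, 2681 and 24.2 on before-calving replicates 1 to 4 and at 934, 1172, 1303 and 0.397 on the after-calving replicates. It was the single member probe well above background on 7 arrays and the only one detected on before-calving replicate 4. Unscaled, the 3 brighter before-calving arrays were above the 3 brighter after-calving arrays. The other GPX1 probe, A_73_P031771, was called on before-calving replicate 3 (97.4) and after-calving replicate 1 (32.8) alone, and lay between -9.78 and 25.1 on the rest.

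SOD2, the manganese superoxide dismutase of mitochondria, is induced by inflammatory cytokines in many cells. Its probe A_73_P047296 was at 37.5, 2.29, 81.1 and -6.58 before calving and at 33.9, 59.4, 170 and -1.02 after calving, in the order of the replicates. After-calving replicate 3 was the highest, and the other brighter arrays of both times overlapped. The other SOD2 probe was not detected.

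The thiol carriers were dim. GLRX, which codes for glutaredoxin, was at 73.8, 39.6, 80.8 and 4.98 before calving on probe A_73_P072311 and at 26.2, 36.1, 15.3 and -8.64 after calving. The 3 brighter before-calving arrays lay above every after-calving array. Probe A_73_P114381 of the same gene was called on before-calving replicates 1 (70.2) and 3 (57.5) and on after-calving replicate 3 (29.2), and its remaining probe on none. TXN, which codes for thioredoxin, was at 27.9, 54.9, 52.9 and -4.16 before calving and at 17.3, 23.1, 25.3 and 3.91 after calving. It was well above background on the 3 brighter arrays before calving and on no array after calving.

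**Figure D3:**
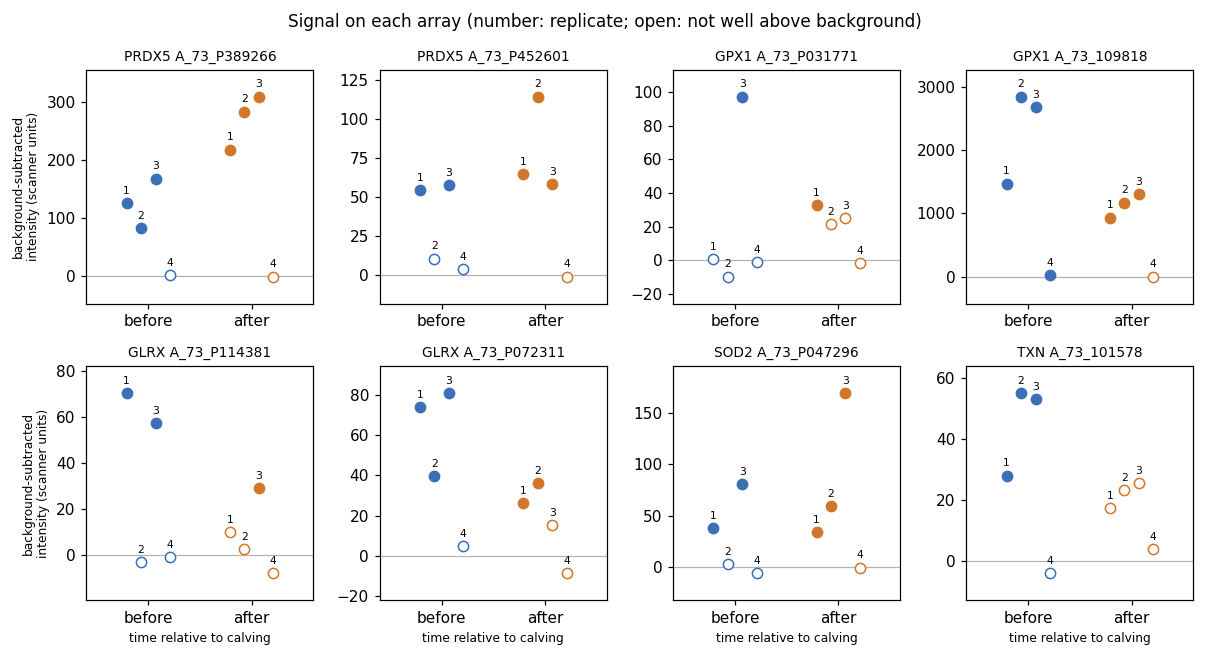
Background-subtracted intensity (vertical axis, scanner units, unscaled, each panel with its own range) of the 8 detected antioxidant probes before (blue) and after (orange) calving, with the replicate number above each point and open points where the probe was not well above background. PRDX5 probe A_73_P389266 spans 83.6 to 169 on the brighter arrays before calving and 219 to 310 after, and the fourth replicates lie near 0 in every panel.

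The first comparison asked whether any of these genes differed between the times over all 8 arrays, using log2 processed intensity scaled by the 75th percentile of each array. GPX1 was the single member tested, because the fit took only probes detected on every array of 1 time or of both. Its scaled log2 level was -0.03 ± 2.26 before calving and -0.32 ± 2.56 after (SD, n = 4 arrays each), a difference of -0.29 (SE 1.25, 95% confidence interval -2.82 to 2.25, limma adjusted p = 0.983). The interval spans both directions, and the difference was smaller than the spread within either time. In this fit 0 of 475 probes passed an adjusted p of 0.05 (0%), with 7 at an unadjusted p under 0.05. Without after-calving replicate 4, where GPX1 lay at the lowest processed value of the array, the difference was 0.67 (limma adjusted p = 0.763). The 8 array fit also used the processed intensity of before-calving replicate 3, where GPX1 was at 1285 against 2681 background-subtracted. With background-subtracted intensity on all 8 arrays the difference was -0.52 (SE 1.06, limma adjusted p = 0.899).

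The second comparison used the 6 arrays with over 2000 detected probes, 3 at each time, and the background-subtracted intensity, which was divided by the 75th percentile of the 1091 probes that all 6 arrays detected, raised to a common floor and put on the log2 scale. PRDX5 rose after calving on both of its tested probes, but A_73_P452601 entered the fit through the after-calving arrays alone. Probe A_73_P389266 rose from a scaled log2 level of -2.08 ± 0.05 to -0.22 ± 0.21 (SD, n = 3 arrays each), a log2 difference of 1.86 (SE 0.15, 95% confidence interval 1.49 to 2.23) or 3.64-fold, with a limma adjusted p of 0.00955. The SE depended on the fit. For the same difference it was 0.34 where only probes detected on all 6 arrays were fitted, and 0.34 with each array's own floor. The first probe was higher on 3 of 3 after-calving arrays than on any before calving. Probe A_73_P452601 rose by 1.41 (SE 0.22, 95% confidence interval 0.87 to 1.96, limma adjusted p = 0.0351). On 2 of its 3 arrays before calving it lay at the floor (log2 -3.54), so the size and the SE of that difference depend on the floor. With each array's own floor the difference was 1.54 (SE 0.37, limma adjusted p = 0.0496). Among 6 member probes tested, these 2 PRDX5 probes were the ones called, both of 1 gene. Of all 2225 tested probes 112 (5.03%) were called in either direction and 1.84% higher after calving.

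The size of the PRDX5 difference placed it among the larger ones of this fit but not at the top: 72 of the 2225 probes had a more positive difference than A_73_P389266 and 158 a more positive one than A_73_P452601. The scaling contributed to the size. The 75th percentiles of the 6 arrays were 545, 342 and 725 before and 272, 366 and 306 after calving, so division by them widened the gap. Scaled over all probes, which also moved the median of all tested probes from -0.05 to -0.58, the first probe was at 1.23 (adjusted p = 0.109) and the second at 0.86 (adjusted p = 0.300).

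PRDX5 kept a positive difference in every alternative that gave a value, but not its call. With limma, the first probe did not pass in 8 of 18 alternatives. Among these were the processed intensity (2.07, adjusted p = 0.0600) and the replicate number as a block (1.86, adjusted p = 0.115). No filter (1.86, adjusted p = 0.377) and the series matrix (3.06, adjusted p = 0.958) were others. It also did not pass without after-calving replicate 2 (1.94, adjusted p = 0.0552) or without after-calving replicate 3 (1.76, adjusted p = 0.0623). Its adjusted p ranged from 0.00901 to 0.958 over 18 alternatives. With before-calving replicate 4 added, which raises the common floor, the difference was 0.53 (adjusted p = 0.104). The second probe lost its call when any single array was left out, with adjusted p from 0.0633 to 0.131.

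**Figure D4:**
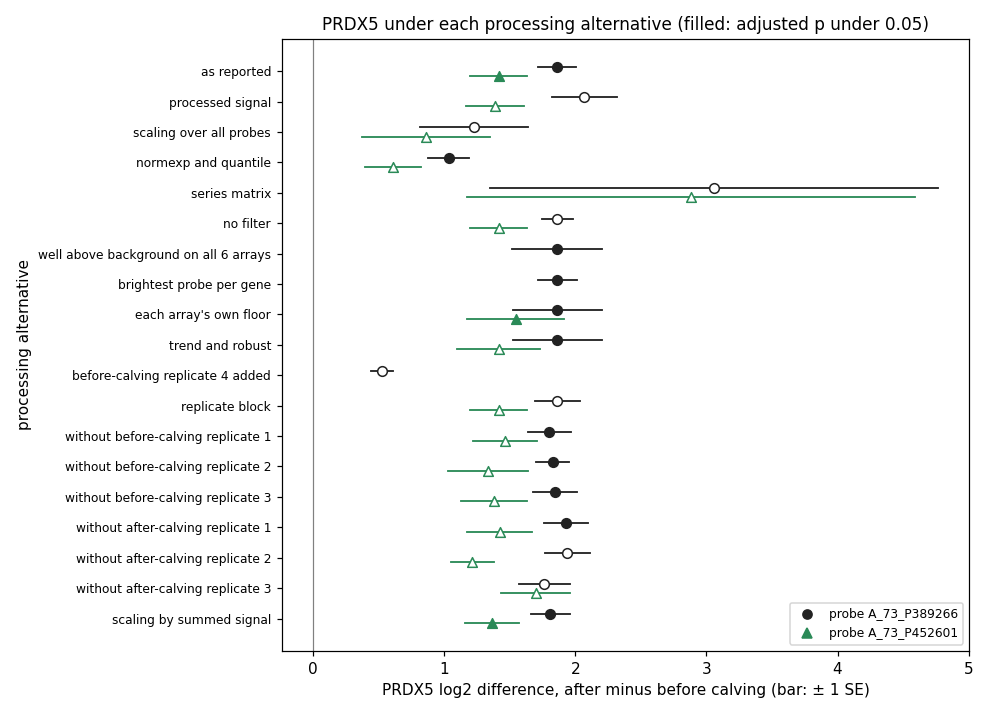
Log2 difference of PRDX5, after minus before calving (horizontal axis, bars ± 1 SE), under each way of processing the 6 brighter arrays (vertical axis), for probe A_73_P389266 (circles) and probe A_73_P452601 (triangles), filled where the adjusted p was under 0.05. All points lie above 0, from 0.53 to 3.06, and many are open.

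Markers of cell types were measured on the same arrays, as the summed scaled intensity (linear) of the probes of each list. The neutrophil sum lay between 12.4 and 25.7 on the brighter arrays before calving and between 73.0 and 88.5 after. Most of it was 1 probe of S100A12, a calcium-binding protein of neutrophil granules and cytosol, which lay between 11.2 and 24.2 before and 69.4 and 85.8 after. Of 9 tested neutrophil probes 5 rose and 0 fell, against 1.84% and 3.19% of all tested probes. Of these 5, the probes of LTF (2 probes), MMP9 and PGLYRP1 were detected after calving alone and passed the filter through that group. That leaves the S100A12 probe above as the 1 of them detected at both times. A second S100A12 probe, well above background on 5 of the 6 arrays, was not called (0.57, limma adjusted p = 0.520). The chemokine receptors on the list were not higher after calving: CXCR1 was at -1.25 (limma adjusted p = 0.0586) and CXCR2 at -0.06 (limma adjusted p = 0.839).

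Markers of other leukocytes were lower after calving in several lists. The T cell sum, with 7 of 10 genes detected, lay between 5.46 and 7.04 before and 1.43 and 1.67 after. Of 4 tested T cell probes 3 fell, against 3.19% of all tested probes. They were 2 of CD247, detected on all 6 arrays, and 1 of CD3E, which passed the filter through the before-calving arrays. The CD4 probe, also detected on all 6, was not called (-0.11, limma adjusted p = 0.966). The NK cell sum lay between 0.339 and 0.523 before and 0.143 and 0.184 after, and GNLY fell. The other tested NK cell probe, of NKG7, was not called (-0.56, limma adjusted p = 0.0563). Both passed the filter through the before-calving arrays. The monocyte sum lay between 3.40 and 5.13 before and 2.84 and 3.1 after, and CSF1R fell by 1.62 (limma adjusted p = 0.0386). LYZ, the other monocyte gene tested, was not called (-0.35, limma adjusted p = 0.328). The eosinophil probes covered ALOX15, which was detected and fell, and CCR3, which was not detected, and lay between 1.03 and 1.37 before and 0.139 and 0.161 after. The B cell sum overlapped, at 0.489 to 1.32 before and 0.610 to 0.945 after.

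The erythroid sum lay between 0.471 and 1.37 before and 1.48 and 2.64 after, with 4 of 10 genes detected. HBA, an alpha globin gene, made up most of it after calving and was the single one tested (1.83, limma adjusted p = 0.233), while AHSP, HBB and HBQ1 were detected on more arrays before calving than after. ALAS2, CA1, CA2, EPB42, HBM and SLC4A1 were not well above background, nor were the platelet markers PF4, ITGA2B and TUBB1. The part of these cell markers in the PRDX5 result was not tested. In such bulk preparations fewer cells of a type and less RNA per cell cannot be told apart.

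The other tested members did not pass the threshold on the 6 brighter arrays. SOD2 was at 1.25 (SE 0.60, 95% confidence interval -0.28 to 2.78, limma adjusted p = 0.321). Scaled, its after-calving values of -3.00, -2.62 and -0.85 lay above the before-calving values of -3.54, -3.54 and -3.16, the first 2 at the floor, although unscaled values of the times overlapped. GPX1 was at -0.28 (SE 0.45, 95% confidence interval -1.42 to 0.87, limma adjusted p = 0.756). Its scaled values of 1.43, 3.06 and 1.89 before and 1.78, 1.68 and 2.09 after calving overlapped, and before-calving replicate 2 stood above all others. Without that array GPX1 was at 0.13 (limma adjusted p = 0.747).

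GLRX was at -0.36 (SE 0.13, 95% confidence interval -0.70 to -0.02), with a limma adjusted p of 0.226. Its scaled values were -2.88, -3.11 and -3.17 before and -3.37, -3.34 and -3.54 after calving, without overlap, the last at the floor. TXN was at -0.30 (SE 0.28, 95% confidence interval -1.01 to 0.42, limma adjusted p = 0.599). It lay at the floor on all 3 arrays after calving and on 2 before, and the difference came from before-calving replicate 2 at -2.64. No after-calving array detected TXN, so its level there is only bounded, and no fold is given.

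Of the 6 tested member probes 3 had positive and 3 negative differences, with a median of 0.49, against -0.05 over all 2225. The times did not overlap in 4 of the 6, against 26.2% of the tested probes without a missing array: 3 of 6 were higher after calving (11.1% of tested probes) and 1 lower (15.2%). Of these 6, GLRX and TXN passed the filter through the before-calving arrays and SOD2 and PRDX5 probe A_73_P452601 through the after-calving arrays, and the filter favours a difference in the direction of the group that was high. That does not apply to the PRDX5 and GPX1 probes that all 6 arrays detected. Of these 2, PRDX5 was higher after calving without overlap, against 28% of the 1091 such probes without overlap in either direction, 9.99% higher and 18.1% lower. With the fit run on these 1091 probes alone, PRDX5 was the 1 called (adjusted p = 0.0183), against 4.58% called in either direction, 1.83% higher and 2.75% lower.

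**Figure D5:**
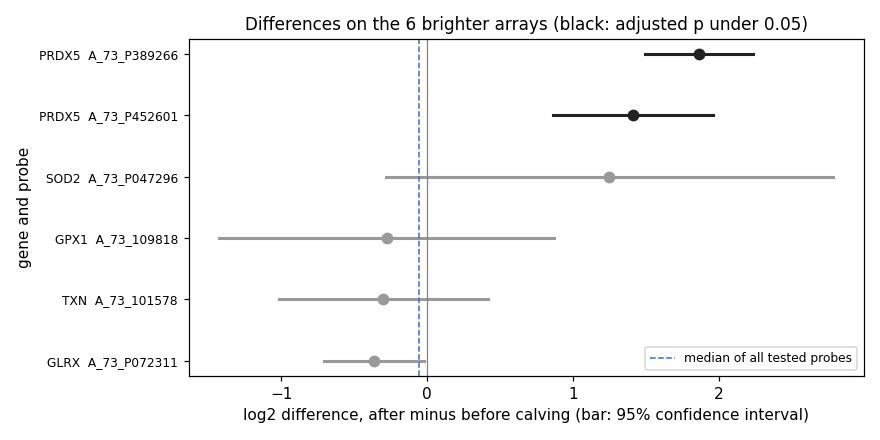
Log2 difference after minus before calving on the 6 brighter arrays (horizontal axis) of the 6 tested antioxidant probes (vertical axis), with 95% confidence intervals and, as a dashed line, the median of all tested probes. Both PRDX5 probes, in black, passed the threshold, and the intervals of SOD2, GPX1 and TXN include 0.

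The genes around these enzymes gave few measured probes. A list of 44 other genes covered the thiol and glutathione cycle and further antioxidant and iron genes. Of these, 39 had a probe and 6 could be tested on the 6 brighter arrays, with 7 probes. Of the 7 probes 0 rose and 0 fell at an adjusted p of 0.05, and their median difference was -0.42. The genes tested were FTH1, FTL, HMOX1, NFE2L2, PARK7 and SOD1. None of them codes for an enzyme that recycles thioredoxin or glutathione, so the cycle itself was not tested. PARK7, which codes for the redox-sensitive chaperone DJ-1, was at -1.09 (SE 0.29, limma adjusted p = 0.109). FTL, the ferritin light chain, was at -0.77 (limma adjusted p = 0.152), and HMOX1, the haem oxygenase induced by oxidative stress, was at 0.69 (limma adjusted p = 0.343). FTH1, the ferritin heavy chain that oxidises stored iron, was at 1.84 (SE 1.79, limma adjusted p = 0.610). On before-calving replicate 2 the FTH1 probe was at the floor, and on the other 5 arrays it lay between 1.54 and 2.82. Without replicate 2 the difference was -0.20. PARK7 and FTL turned positive with the series matrix, at 0.66 and 0.83, where the median of all probes was 1.03.

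Of 8 genes listed around NADPH supply, TKT was the single one tested. It codes for a transketolase of the pentose phosphate pathway, which does not itself make NADPH, so no NADPH-producing enzyme was tested. TKT was at 0.36 (SE 0.28, limma adjusted p = 0.538), and at -0.27 with scaling over all probes. Of 12 genes of oxidant production, RAC1, a GTPase that activates the NADPH oxidase, was at 0.64 (limma adjusted p = 0.637) and NCF1, which codes for the oxidase subunit p47phox, at 0.40 (limma adjusted p = 0.648). RAC1 was at -0.12 without before-calving replicate 2, and NCF1 at -0.08 without after-calving replicate 1. NCF1 was also negative with the processed signal (-0.85) and with the series matrix (-0.39). No probe of either list passed the threshold.

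The probes most like PRDX5 over the 6 brighter arrays were ranked by the mean absolute difference of log2 values after centring, among 801 named probes detected on all 6. Nearest to A_73_P389266 were LOC781977 (0.214), ASIP (0.258), CDNF (0.274), DEFB7 (0.277) and APOOL (0.286). Nearest to A_73_P452601 were LAD1 (0.196), DEFB7 (0.216), LGALS3BP (0.233), LOC510193 (0.281) and PEX7 (0.284). DEFB7, a beta-defensin gene whose probe may also bind related defensins, stood in both sets.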

How the data were processed

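RNA of isolated neutrophils was hybridised in a single colour (Cy3) to bovine Agilent arrays. Per the file headers, spot intensity values were written by Agilent Feature Extraction 10.10.1.1, whereas the submitters' processing notes name version 9.1. Background-subtracted and processed intensity are given side by side per the file headers. The deposited series matrix holds log2 values that matched the log2 processed intensity of each array, less its 75th percentile and centred on each probe (lowest correlation 0.9991). That scale was read from the values, and column medians lay between -2.61 and 0.0289.

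Control and outlier spots were left out and spots of a probe averaged. Accessions were named through a RefSeq gene table of assembly ARS-UCD2.0, which named 26832 probes and left 16821 unnamed. All probes past the filter entered a limma fit (version 3.58.1, R 4.3.3), with two-sided moderated statistics from eBayes, Benjamini-Hochberg adjustment over the whole table and a threshold of 0.05. The 8 array fit divided processed intensity by the 75th percentile of the 115 probes that all 8 arrays detected. The fit of 6 arrays used a common floor of log2 -3.535: each array has a lowest scaled value among its detected probes, and the floor is the highest of these. The number of arrays limits the precision. The fits were tested on simulated data with independent normal values for each probe and array. That test did not model shared animals, slides or the floor, so it gives no measure of their effect.

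The members, lists, the set of 6 arrays and the tests were chosen with earlier results of these data known. The text names every member probe, related genes past the threshold or else the 2 with the largest difference in each direction, and the 5 probes most like a called member. The normexp alternative used the median spot signal with an offset of 50. No probe sequences were used here. 1 marker of the lists is not reported here and was left out of its list.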

Additional observations from a re-analysis of the deposited data

Results flagged for a closer look

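Processed and background-subtracted intensity of each member probe and the scaled log2 values were examined in each time point, 132 groups of 4 arrays in all, and 16 held an array far from the other 3. Chance flags about 1 in 20 such groups, and probes of 1 array are not independent.

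Of these, 10 were processed intensities of before-calving replicate 3 that stood above the other 3 arrays of that time, on which the same probes lay between 3.89 and 4.94. They were 33.5 for PRDX1, 46.4 and 42.7 for the 2 PRDX2 probes, 668 for PRDX3, 170 for PRDX5 probe A_73_120417, 63.0 and 62.3 for 2 PRDX6 probes, 24.0 for GPX4 probe A_73_106948, 461 for SOD2 probe A_73_P100016 and 312 for GPX1 probe A_73_P031771. Of these probes the GPX1 one alone was well above background there. Its background-subtracted intensity on the same array, 97.4, also stood apart from the others (-9.78 to 0.657). The surface correction of that array had a root mean square of 1.83, against 0 on the others. Dividing processed by subtracted intensity over its 4486 probes well above background gave 0.118 at percentile 1 and 71.5 at percentile 99. Of the probes flagged in this paragraph, the GPX1 one alone is among these.

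The fourth replicates stood low for the brightest probes. PRDX5 probe A_73_P389266 had a processed intensity of 3.89 on before-calving replicate 4 (others 83.6 to 126) and of 4.08 on after-calving replicate 4 (others 219 to 310). GPX1 probe A_73_109818 was at 24.2 (others 1285 to 2847) and 4.08 (others 934 to 1303) on the same arrays. For PRDX6 probe A_73_P043306, undetected throughout, the background-subtracted intensity of -4.25 on after-calving replicate 3 stood apart from 1.56 to 1.75 on the others.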

How the results depend on the processing

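Over 8 arrays, 0 probes passed, and 0 member probes passed in any of the 18 alternatives run. The count of probes was 1 with no filter, 14 with array weights and 12 with the 6 brighter arrays, processed signal and no floor (added after seeing the data), and lay between 0 and 1 with an array left out. GPX1 there was at 0.060 with scaling over all probes, 0.062 in the series matrix, 0.79 with array weights, 0.69 without before-calving replicate 2 and 0.67 without after-calving replicate 4, against -0.29, and lay between -0.97 and 0.69 with an array left out. On the 6 brighter arrays, the 112 probes became 12 with the processed signal, 62 with normexp, 5 in the series matrix, 1 with no filter, 50 where only probes detected on all 6 were tested, 61 with trend and robust, 12 with before-calving replicate 4 added and 0 with the replicate block, and lay between 4 and 167 with an array left out (after calving, 56, 7 and 4 when replicate 1, 2 or 3 was the one omitted; before calving, 69 when it was replicate 3). The 2 member probes became 0 with the processed signal, scaling over all probes, the series matrix, no filter, before-calving replicate 4 added and the replicate block. They became 1 with normexp, with probes detected on all 6, with the brightest probe per gene and with trend and robust, and lay between 0 and 1 with an array left out. The share of calls that were higher after calving was 36.6%, against 13.2% with scaling over all probes, 66.7% with the processed signal, 54.6% with each array's own floor, 49.2% with trend and robust and 100% (5 of 5) in the series matrix.

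Signs turned in the series matrix for GPX1 (0.96), GLRX (0.30) and TXN (0.80), where the median of all probes was 1.03, and for GPX1 with before-calving replicate 4 added (0.48) and without before-calving replicate 2 (0.13, range -0.67 to 0.13 with an array left out). No value of these was past the threshold, and the cause was not tested. With before-calving replicate 4 added, PRDX5 probe A_73_P452601 and SOD2 lay at the floor on all arrays and gave no value, as did TXN without before-calving replicate 2. Samples with the same replicate number did not deviate together in each pair (correlations 0.246, -0.250 and 0.277 over 1091 probes, across probes that are not independent). Over all 8 arrays the correlations were 0.584, 0.219, -0.256 and 0.488 over 470 probes, the last for the 2 dim arrays. Values centred on the mean of so few arrays cannot decide whether the number pairs them, and the main fits assumed no pairing. With the replicate block PRDX5 probe A_73_P389266 stayed at 1.86 (limma adjusted p = 0.115).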

Other observations

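In the list around the thiol and glutathione cycle, 14 genes had a probe well above background on any of the 6 brighter arrays. Of these, 7 had one on more arrays before calving, 3 on more arrays after and 4 on as many. The difference between these counts was not tested, and without the same split over all genes it is not read as a trait of this list. NFE2L2, which codes for the transcription factor NRF2, had a probe well above background on 3 of 3 arrays before calving and on 0 of 3 after, and GPX7, a glutathione peroxidase of the endoplasmic reticulum, on 2 and 0. SOD1, the copper and zinc superoxide dismutase of the cytosol, was detected on 3 arrays before and 1 after. HMOX1 was detected on 2 arrays before and 3 after. The before-calving arrays among these 6 held 2365 to 4486 probes well above background and the after-calving arrays 2201 to 2746, and the part of that in these counts was not tested. Where tested, NFE2L2 was at a log2 difference of -0.16 (limma adjusted p = 0.568) and SOD1 at -0.42 (limma adjusted p = 0.385).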
